A study of Mus musculus with 12 samples.

Results

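The spleens of wild-type BALB/c mice were compared between 1 and 4 months of age, with 3 arrays per age, which are 6 of the 12 arrays of the series. The 6 arrays were chosen by their titles alone, as the wild-type spleens of either age, with no use of measured values. Affymetrix 3' expression arrays had been hybridised with biotin-labelled total spleen RNA extracted with Trizol, and the design lists 3 mice per genotype and age, as many as arrays. The wild-type (wt) mice carried no named allele and had received no named treatment. The other 6 arrays were from BALB/c mice that lacked Il1rn, the gene of the IL-1 receptor antagonist (ko), with 3 at 1 month and 3 at 4 months. BALB/c mice of that kind are known for arthritis, and here they serve only to show where the age difference of the wild type was also seen or was not. The labels used here give neither the sex of the mice, nor housing, nor the hour at which a spleen was taken.

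The spleen of a young mouse does more than filter blood and host lymphocytes. Its red pulp holds erythroblasts and granulocyte precursors, which divide, make haem and haemoglobin or fill with granule proteins, and this blood formation declines as the animal matures and the bone marrow takes over most of it. Over the same weeks the white pulp fills with mature B and T cells, germinal centres and plasma cells respond to gut and environmental microbes, and red pulp macrophages recycle the iron of old red cells.

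Signals are given on the deposited linear scale, where each array has a trimmed mean of 500. A log2 difference is the mean log2 of signal plus 32 at 4 months minus that at 1 month, and a probe set was called when limma's adjusted p was under 0.05. Of the 27041 probe sets tested in wild-type spleens, 5795 (21.4%) were called, 3179 higher (11.8%) and 2616 lower (9.67%) at 4 months. Lower calls reached 2-fold more often, in 1118 cases against 566 of the higher calls. The 3 arrays of one age lay outside the range of the other in 5369 of the calls, against 31.6% of all tested probe sets. The split between directions depended on the scaling. Higher calls were 54.9% of the calls here, 48.4% after quantile normalization (2564 higher, 2737 lower) and 35.9% when each array was centred on its median (1851 higher, 3301 lower). The median of all tested probe sets moved with it, from 0.09 to 0.05 and to -0.03. With 1 probe set per gene, 1546 of 12339 genes were higher (12.5%) and 1414 lower (11.5%), with a median of 0.07. The list counts that follow are to be read against these shares and that median.

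Each wild-type array at 4 months stood apart in some respect. Replicate 1 had 3' to 5' signal ratios of 0.999 for Gapdh and 1.37 for actin, against 0.649 to 0.816 and 1.07 to 1.20 on the other 11 arrays. Replicate 2 carried pancreas transcripts, 5.63 log2 units above the median array, and replicate 3 had the highest heat shock signal, 1.38 above it. At 1 month, replicates 2 and 3 carried melanocyte transcripts, at 2.19 and 1.59 above the median array. Replicate 3 of both ages had a highest signal under 45000 and the other 4 arrays a higher one, so that each age held arrays of both kinds (the low and the high set). Pearson's r over tested probe sets was 0.944 to 0.959 within 1 month, 0.950 to 0.963 within 4 months and 0.884 to 0.947 between the ages. The spleen was recognisable by its markers on all 6 wild-type arrays, with Ms4a1 of B cells at 8472 to 13557, Hmox1 of red pulp macrophages at 2768 to 8582 and the spleen-forming factor Tlx1 at 258 to 700. The Y-linked Eif2s3y was present on all 6, at 1560 to 2162. Il1rn, the gene deleted in the ko mice, was not called with age in wild type on any of its 3 probe sets. Its probe set with the highest signal read 142 ± 21.5 at 1 month and 209 ± 61.5 at 4 months (SD, n = 3) in wild type and 23.3 ± 17.5 and 21.9 ± 16.6 in ko.

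**Figure D1:**
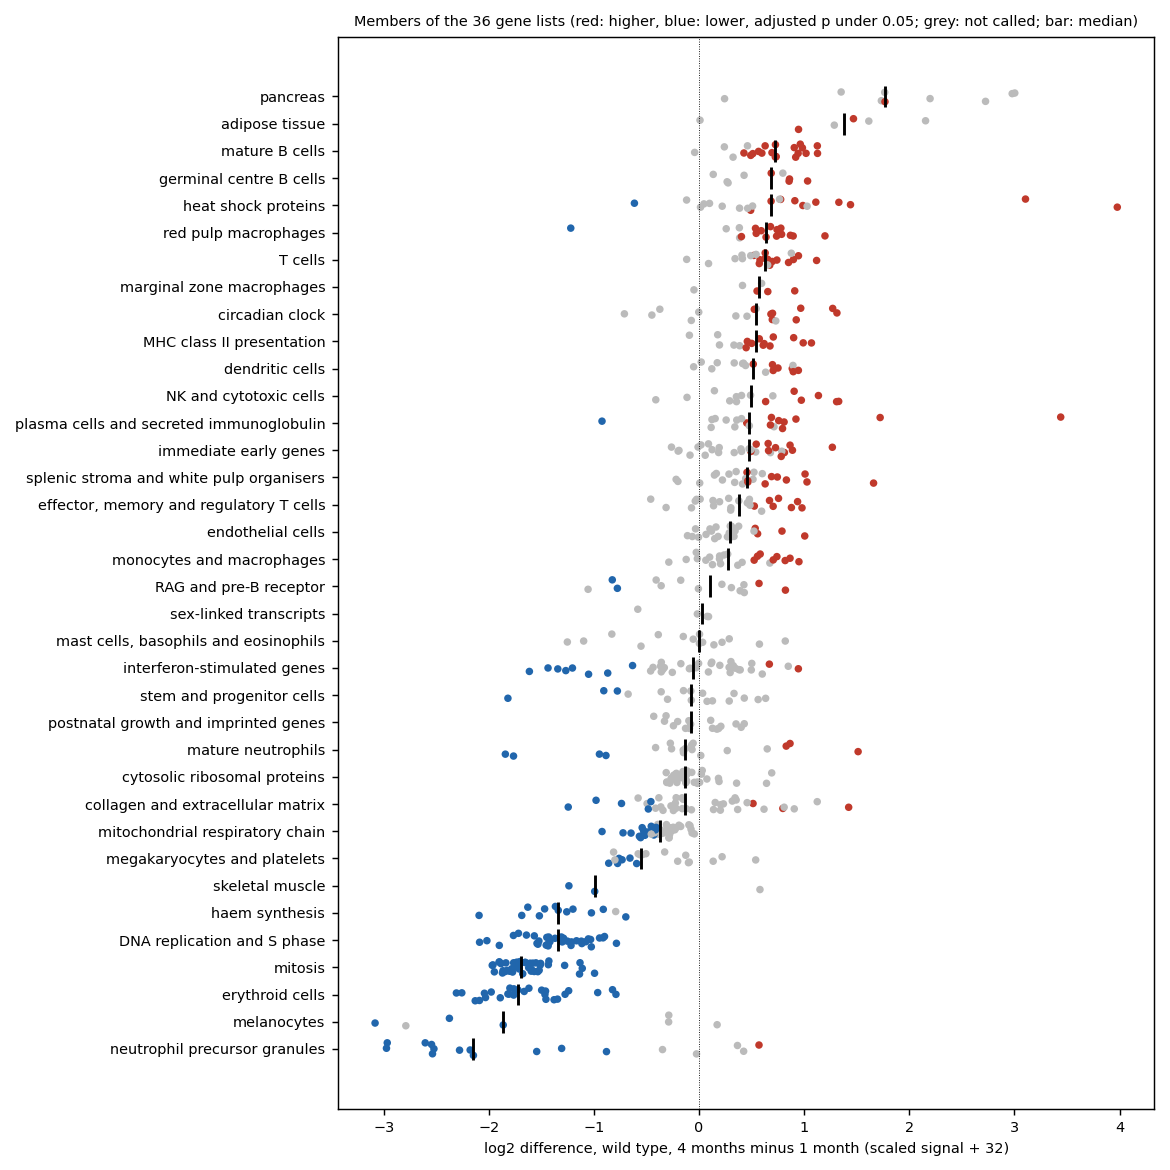
Each point is 1 gene of a list, placed by its log2 difference between 4 and 1 months in wild-type spleens (x axis), with the 36 lists in rows ordered by their median (black bar). Erythroid, haem, mitosis, replication and granule genes have medians of -1.34 to -2.15, the melanocyte list, high on 2 young arrays, lies among them at -1.86, and lymphocyte and macrophage lists lie to the right of 0.

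Erythroid genes fell in the wild-type spleen as a group. All 27 erythroid genes that passed the filter on low signal were lower at 4 months, with a median log2 difference of -1.72 and a range of -2.31 to -0.79, and the arrays of the 2 ages did not overlap for 25 of them. Klf1, the master transcription factor of red cell genes, read 18616, 13988 and 12751 at 1 month and 3462, 6760 and 3174 at 4 months. Every 4-month array lay below every 1-month array, with replicate 2 the highest of the older spleens. The difference was 3.53-fold (log2 -1.82, SE 0.23, limma adjusted p = 3.96e-05).

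Surface and membrane proteins of the erythroblast moved with it. Icam4, which binds erythroblasts to the central macrophage of their island, read 4121, 2994 and 3569 at 1 month and 686, 1176 and 644 at 4 months, 4.26-fold lower (log2 -2.09, SE 0.19, limma adjusted p = 3.25e-06). The groups lay far apart, and the highest old spleen was again replicate 2. Epb42 (protein 4.2 of the red cell skeleton) fell by 2.31 on the log2 scale, Ank1 (ankyrin 1) by 2.26, the Rhesus proteins Rhd and Rhag by 2.13 and 1.76, and Mgst3 by 1.98. Epor, the erythropoietin receptor, fell by 1.80, Gata1 by 1.66 and Tfrc, the transferrin receptor that brings iron in, by 1.28. The smallest falls were those of Bpgm (-0.79) and of Car2 (-0.82), a carbonic anhydrase with signals from 17891 to 55595. Car2 was the single erythroid gene whose call was lost on leaving out an array (adjusted p = 0.116, 0.073, 0.057 and 0.091 without 1-month replicate 1 or 2 or 4-month replicate 1 or 3). In whole spleen RNA, fewer cells of a type and less RNA per cell cannot be told apart.

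The enzymes of haem synthesis followed. Of 13 tested members of that list, 12 fell and none rose, with a median of -1.34. Uros, the uroporphyrinogen synthase, read 9222, 6937 and 5393 at 1 month and 1515, 2218 and 1262 at 4 months, 4.27-fold lower (log2 -2.09, SE 0.21, limma adjusted p = 5.29e-06). The lowest young spleen was more than 2-fold above the highest old one. Urod, the next enzyme of the chain, fell by 1.69, Abcb10, which stabilises the mitochondrial iron importer, by 1.63, and Alad by 1.52. Alas2, the erythroid enzyme of the first and limiting step, fell least, by 0.70 (SE 0.20, limma adjusted p = 0.02), and its arrays overlapped (20577 to 30969 against 11582 to 20982). Its call was lost without 1-month replicate 1 or 2 or 4-month replicate 3 (adjusted p = 0.0997, 0.054 and 0.092). Steap3, the ferrireductase, was not called at -0.79. Of the 2 lists, the median was -1.51 and -1.20 among the 4 arrays of the high set and -1.96 and -1.53 in the low set, which holds 1 array per age.

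Promoters of erythroid genes were searched for the GATA motif AGATAA, the core bound by GATA1, which is itself a member of the falling list. The motif is among 17 that were searched and was chosen after the counts were seen. In windows of 300 bases, from 250 before to 50 after each gene's start, 8 of the 21 erythroid genes with an entry in the RefSeq promoter table held it on either strand, against 11.4% of all 27025 entries. Haem synthesis genes held it in 3 of 11. Icam4 is shown because it was among the erythroid genes of smallest p. Its 150 bases before the start (GRCm38.p6, chr9:21029282-21029431, plus strand) carry the motif once, on the opposite strand, in capitals.
Icam4: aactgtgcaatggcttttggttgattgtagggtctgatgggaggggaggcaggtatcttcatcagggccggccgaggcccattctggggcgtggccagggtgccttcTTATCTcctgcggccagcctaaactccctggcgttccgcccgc

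Genes of cell division fell together. All 42 tested genes of the mitosis list were lower at 4 months, with a median of -1.69 and a range of -1.97 to -0.99, and the ages did not overlap for any of them. Kif11, the motor that pushes the spindle poles apart, read 3027, 2173 and 2125 at 1 month and 587, 704 and 500 at 4 months, 3.91-fold lower (log2 -1.97, SE 0.17, limma adjusted p = 2.17e-06). The 2 ages were well apart, with little spread among the old spleens. Ect2, which triggers the cleavage furrow, fell 3.89-fold, Nuf2 of the outer kinetochore by 1.90 on the log2 scale and Bub1, a spindle checkpoint kinase, by 1.83. Cdk1, the kinase that drives entry into mitosis, fell by 1.87 and its cyclin partner Ccnb2 by 1.84. Mki67, the antigen Ki-67 of cycling cells, read 29793, 25529 and 16532 at 1 month and 7686, 12544 and 5622 at 4 months, and fell by 1.51 (SE 0.24, limma adjusted p = 0.00039).

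The 34 tested genes of DNA replication and S phase were also all lower, with a median of -1.34 and no overlap between ages. Cdc6, which loads the replicative helicase, read 6720, 6191 and 5252 at 1 month and 1104, 2108 and 1154 at 4 months, 4.25-fold lower (log2 -2.09, SE 0.20, limma adjusted p = 4.09e-06). The old spleens were again highest in replicate 2. E2f8, a repressor that shuts S-phase genes off again, fell by 2.02 and Dscc1, part of a clamp loader, by 1.90. Ccne2 (cyclin E2) fell by 1.77 and Rrm2, the limiting subunit that makes deoxynucleotides, by 1.64. The helicase subunits Mcm2 to Mcm7 fell by 0.79 to 1.29, and Pcna, the sliding clamp, by 0.95. Left-out arrays changed little here, since 42 mitosis genes and at least 32 of the 34 replication genes stayed lower without any 1 wild-type array. The mitosis median was -1.61 within the high set and -1.82 within the low set.

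Promoters of mitosis genes are known for the cell cycle homology region, a short element with the letters TTTGAA that is bound by MuvB complexes, often with a CCAAT box upstream that is bound by NF-Y. Both are shown because the mitosis list was the longest to move as 1 block. TTTGAA was found on either strand in 27 of 35 mitosis genes with a promoter entry, against 18.1% of all entries and 4 of 28 replication genes. CCAAT was found in 26 of the 35 and in 17 of the 28, against 37.9% of all. It is not particular to the lists that fell, since 11 of 15 clock genes held it and none of that list fell. Both motifs were found in 23 mitosis promoters and neither in 5 (Birc5, Melk, Nuf2, Nusap1 and Pttg1). The median log2 difference was -1.70 for the 27 genes with TTTGAA and -1.71 for the 8 without. The 17 motifs were searched in 8 lists, and these too were chosen after the counts were seen. A match describes letters in a window and not a bound site. Kif11 (chr19:37376232-37376381, plus strand) and Ect2 (chr3:27153879-27154028, minus strand) are printed for the 150 bases before the start in GRCm38.p6, with TTTGAA or its reverse complement in capitals. In the printed bases of Ect2 the capitals lie upstream of the CCAAT letters, the reverse of the order described above.
Kif11: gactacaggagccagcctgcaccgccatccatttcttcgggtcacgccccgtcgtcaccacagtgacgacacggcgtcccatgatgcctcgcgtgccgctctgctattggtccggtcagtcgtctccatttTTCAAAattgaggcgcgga
Ect2: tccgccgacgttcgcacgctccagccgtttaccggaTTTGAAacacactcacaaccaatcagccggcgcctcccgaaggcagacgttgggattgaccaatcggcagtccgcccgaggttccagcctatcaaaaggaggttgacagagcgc

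**Figure D2:**
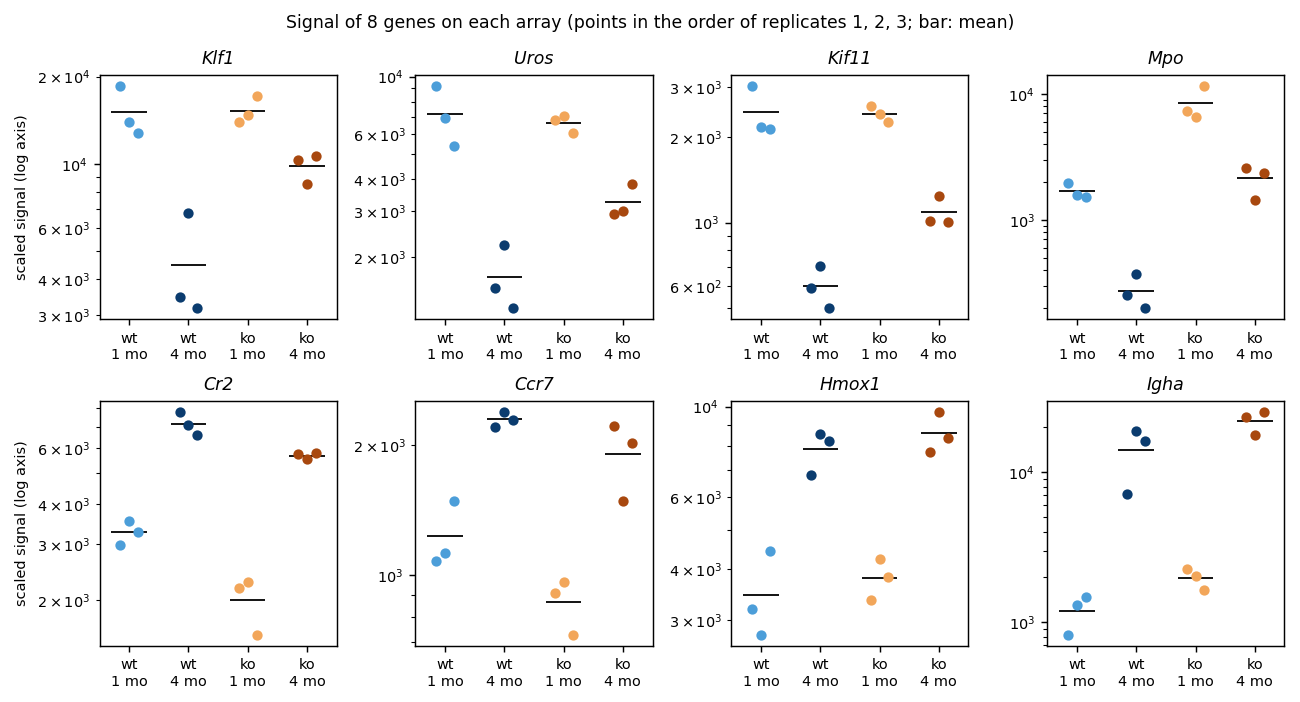
Scaled signal on a log axis of 8 genes on each of the 12 arrays, grouped by genotype and age, with replicates 1 to 3 from left to right and a bar at the group mean. In wild type the 3 old spleens lie below the 3 young ones for Klf1, Uros, Kif11 and Mpo and above them for Cr2, Ccr7, Hmox1 and Igha.

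Granule proteins made by neutrophil precursors showed the lowest median of the 36 lists. Of 17 tested members 12 fell and 1 rose, with a median of -2.15. Camp, the cathelicidin peptide, read 5910, 3577 and 4109 at 1 month and 420, 805 and 452 at 4 months, 7.86-fold lower (log2 -2.97, SE 0.21, limma adjusted p = 1.76e-06). The lowest young spleen was more than 4-fold above the highest old one. The primary granule enzymes fell with it, with log2 differences of -2.97 for Elane (neutrophil elastase), -2.61 for Ctsg (cathepsin G), -2.54 for Prtn3 (proteinase 3) and -2.52 for Mpo (myeloperoxidase). Ngp and Ltf of the secondary granules stood at -2.55 and -2.28. At 4 months Elane, Ctsg and Prtn3 were near or under a signal of 100 on most arrays, so the offset of 32 shrinks their folds. Mgst1 was the member that rose, by 0.57, and that call was lost without 1-month replicate 1 (adjusted p = 0.068) or 4-month replicate 3 (0.060).

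Genes of mature neutrophils did not move as 1 block. Of 19 tested, 4 fell and 3 rose, and the median was -0.13. S100a8 and S100a9, the calprotectin subunits, which are among the most abundant neutrophil proteins and are also made by granulocyte precursors, fell by 1.84 and 1.77. S100a8 read 16180, 15554 and 15168 at 1 month and 3813, 5483 and 3888 at 4 months. Csf3r, the receptor of the granulocyte growth factor G-CSF, rose from 484 to 910 on average (log2 0.86, SE 0.16, limma adjusted p = 0.00144), the protease inhibitor Slpi by 0.83 and the cytokine Il1b by 1.51. Il1b read 695, 1004 and 662 at 1 month and 1632, 1880 and 3788 at 4 months, with the highest value on replicate 3, the array of high heat shock signal.

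Other blood-forming lists moved less. Among 20 megakaryocyte and platelet genes 6 fell, with a median of -0.55, among them Clec1b, the podoplanin receptor of platelets, by 0.59 and the platelet chemokines Ppbp and Pf4 by 0.76 and 0.78. Ppbp lost its call without 1-month replicate 1 (adjusted p = 0.054), and Pf4 without 1-month replicate 1 or 2 or 4-month replicate 3 (0.063, 0.059 and 0.090). That count fell to 1 without 1-month replicate 1 and to 3 without 4-month replicate 3, and was 10 without 4-month replicate 2. The median was -0.30 in the high set and -0.85 in the low set. Of 17 stem and progenitor genes 3 fell, Hoxa9 by 1.82, Lmo2 by 0.91 and Myb by 0.78, and none rose. Hoxa9 was called on 1 of its 2 probe sets and Myb on 1 of 3. Kit, the receptor of stem cell factor, and Cd34 stood at 0.03 and 0.08. Of the 14 genes of the RAG and pre-B receptor list, Myb and Cd24a fell and Il7r and Ebf1 rose, and Rag1 and Dntt were between 115 and 160 on average at either age. Cd24a is also abundant on erythroblasts. Il7r read 1666, 1908 and 1656 at 1 month and 3392, 3072 and 2854 at 4 months, and it is carried by naive T cells too. Ebf1 lost its call without 1-month replicate 1 (adjusted p = 0.160) or 4-month replicate 1 (0.089) or 3 (0.075).

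Mature B cell genes rose. Of 23 tested, 19 were called higher and none lower, with a median of 0.73, and the ages did not overlap for 19. Cr2, the complement receptor CD21 of follicular and marginal zone B cells, read 2973, 3544 and 3279 at 1 month and 7797, 7084 and 6614 at 4 months, 2.18-fold higher (log2 1.13, SE 0.15, limma adjusted p = 6.09e-05). The 3 older spleens lay well above the 3 younger ones. Cd55, which protects cells from complement, rose by 1.12, Tnfrsf13c, the receptor of the survival factor BAFF, by 0.94 and Cxcr5, which leads B cells to follicles, by 0.91. Cd83 rose by 1.02, and Cd79b, the signalling partner of the B cell receptor, by 0.73. The count was 12 with arrays centred on their median and 13 to 16 when any 1 array was left out. Ms4a1 (CD20) was called at 0.43 and lost its call without any 1 of 5 arrays (adjusted p = 0.064 to 0.118), the exception being 1-month replicate 2. Cd79a, called at 0.96 with overlapping arrays, lost its call without 1-month replicate 1 or 2 or 4-month replicate 2 or 3 (adjusted p = 0.087, 0.108, 0.094 and 0.051).

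Immunoglobulin transcripts rose on many probe sets, though not on all. Igha, the heavy chain of IgA, was among the genes with the largest rises. It read 826, 1295 and 1461 at 1 month and 7128, 18693 and 16172 at 4 months, 10.9-fold higher (log2 3.44, SE 0.29, limma adjusted p = 2.17e-06), and its 3 probe sets gave 2.66 to 3.44. Ighg3, the heavy chain of IgG3, rose 3.3-fold on 1 of its 2 probe sets, from 460 ± 121 to 1564 ± 175 (SD, n = 3). For Ighm, the heavy chain of IgM, 5 of 7 probe sets rose, by up to 2.91, but the 2 brightest did not. Those went from 34046 to 41790 and from 44149 to 43798, near the top of the signal range, and the others stood at 54 to 1017 at 1 month. Light chain probe sets were higher in 12 of 19 cases and lower in none, with a median of 0.83. Probe sets for immunoglobulin genes can share sequence among segments, so the single segments named, such as Igkv14-111 (4.6-fold higher), are uncertain.

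The other plasma cell genes named here rose less than Igha and Ighg3 or were not called higher. Of 19 tested members of the list, with Igha, Ighg3 and the light chain Iglv1 included, 9 rose and 1 fell, with a median of 0.48. Sdc1, the plasma cell marker CD138, read 304, 305 and 371 at 1 month and 765, 711 and 491 at 4 months, 1.89-fold higher (log2 0.92, SE 0.18, limma adjusted p = 0.00216). The 3 old spleens lay above the 3 young ones. Prdm1, the factor Blimp-1 that commits a B cell to secretion, rose by 0.76, Irf4 by 0.81 and Derl3 by 0.79. Jchain, which joins IgA and IgM into polymers, was not called (25527 ± 6027 and 28518 ± 7366, SD, n = 3), nor was Xbp1 (0.26, limma adjusted p = 0.155). The wild-type signals of Jchain differed by array set, with 18777 and 20047 in the low set and 27434 to 33419 in the high set. Ell2, an elongation factor used in antibody secretion, went the other way and fell by 0.92. Of 9 genes of germinal centre B cells, 4 rose and none fell, among them Bcl6, the master repressor of that fate, which read 442, 752 and 720 at 1 month and 1233, 1109 and 1623 at 4 months (log2 1.03, SE 0.19, limma adjusted p = 0.00138).

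T cell genes rose too, with a weaker hold. Of 22 tested, 13 were higher and none lower, with a median of 0.63. Ccr7, which brings naive T cells and dendritic cells into the T zone, read 1076, 1124 and 1486 at 1 month and 2205, 2386 and 2290 at 4 months, 1.86-fold higher (log2 0.90, SE 0.17, limma adjusted p = 0.00174). Satb1, a chromatin organiser of T cells, rose by 0.95, Cd4 by 1.12 and the adhesion receptor Cd2 by 0.85. Cd3e did not follow (log2 0.09, SE 0.21), Cd3d and Cd8a were not called at 0.41 each (1 of 5 probe sets of Cd8a was higher), and Cd3g was called at 0.63, a call lost without 1-month replicate 1 (adjusted p = 0.058). The count was 5 without 1-month replicate 1, 7 without 1-month replicate 2 and 8 with median centring, while the median stayed between 0.51 and 0.71 over the alternatives. Satb1, Ccr7, Cd4 and Cd2 kept their calls without each wild-type array in turn.

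Transcripts of effector lymphocytes were also higher. Of 25 genes of effector, memory and regulatory T cells 7 rose and none fell (4 without 4-month replicate 1), with a median of 0.38. Ccl5, a chemokine stored by memory T and NK cells, rose by 0.98, Il2rb by 0.88, Cxcr3 by 0.76 and S100a4 by 0.70. Cxcr3 lost its call without 1-month replicate 1 (adjusted p = 0.062). Of 15 genes of NK and cytotoxic cells 6 rose and none fell, with a median of 0.49. Gzma, the granule protease granzyme A, read 1599, 1700 and 1248 at 1 month and 3401, 3999 and 4101 at 4 months, 2.51-fold higher (log2 1.33, SE 0.16, limma adjusted p = 2.69e-05). The 3 old spleens read at least 3401 and the young at most 1700. Prf1 (perforin) rose by 1.14, Klre1 by 1.31 and Ncr1, the NK receptor NKp46, by 0.97.

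Most red pulp macrophage genes rose. Of 17 tested, 13 were higher, 1 was lower and 3 were not called, with a median of 0.64. Hmox1, the haem oxygenase that opens the haem ring, read 3203, 2768 and 4428 at 1 month and 6805, 8582 and 8239 at 4 months, 2.29-fold higher (log2 1.20, SE 0.17, limma adjusted p = 0.000126). The ages were well separated. Spic, the transcription factor that makes these cells, rose by 0.78 and the metal transporter Slc11a1 by 0.74, while the iron exporter Slc40a1 was not called at 0.39. Blvrb, a biliverdin reductase, was the member that fell, from 11882, 9168 and 14431 to 3565, 7419 and 4638 (log2 -1.22, SE 0.22, limma adjusted p = 0.00099). Blvrb is also abundant in erythroid cells. The count of higher genes was 7 without 1-month replicate 1 and 8 without 4-month replicate 3.

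Other myeloid and antigen-presenting cells moved the same way in part. Marco, the scavenger receptor of marginal zone macrophages, read 1762, 2175 and 1824 at 1 month and 3386, 3460 and 4050 at 4 months (log2 0.91, SE 0.22, limma adjusted p = 0.00867), and 3 of 6 genes of that list rose, Nr1h3 and Timd4 being the others. Timd4 lost its call without 1-month replicate 1 (adjusted p = 0.051) or 4-month replicate 3 (0.055). Of 23 genes of monocytes and macrophages 8 rose and none fell (5 without 4-month replicate 3), among them Cybb, the catalytic subunit of the phagocyte oxidase, by 0.95 and Cd68 by 0.71, and the median was 0.27. Of 17 dendritic cell genes 7 rose, with Itgax (CD11c) at 948, 1056 and 1216 and then 2160, 1893 and 1959 (log2 0.89, SE 0.14, limma adjusted p = 0.000442), Bst2 at 0.94, Cd207 at 0.90 and Irf8 at 0.70.

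MHC class II genes rose in 11 of 16 cases and fell in none, with a median of 0.54. Ciita, the factor that switches the class II genes on, rose by 1.07 and H2-Ab1, a chain of the I-A molecule, by 0.99. H2-Ab1 read 6979, 7027 and 9992 at 1 month and 14080, 17241 and 15925 at 4 months. Its partner H2-Aa, at 30219 and 33895, was not called (0.18). Cd40 rose by 0.67 and the lysosomal protease Lgmn by 0.90. The count was 7 without 1-month replicate 1 or 2, without 4-month replicate 2 and with median centring.

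Among genes that form the framework of the organ, the stroma list rose in part. Of 24 genes of splenic stroma and white pulp organisers, 10 rose and none fell (5 without 1-month replicate 1), with a median of 0.46. The contractile proteins Tagln (SM22), Myh11 and Acta2, made by smooth muscle and reticular cells, rose by 1.03, 1.01 and 0.63. Il7, a survival factor for lymphocytes, read 289, 238 and 294 at 1 month and 605, 423 and 515 at 4 months (log2 0.83, SE 0.18, limma adjusted p = 0.00345). The spleen-forming homeobox factors Tlx1, Nkx2-5 and Nkx2-3 stood at 0.34, 0.16 and 0.15 and were not called.

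Among all genes, 11.5% were called lower and 12.5% higher. Of 38 genes of collagen and extracellular matrix, 5 fell and 3 rose, near those shares, with a median of -0.14. Those that fell included the fibre proteins Eln (elastin), by 1.25, Col5a1, by 0.98, and Col3a1, by 0.74. The 3 probe sets of Col5a1 disagreed, with 2 lower and a range of -0.98 to 0.41. Eln read 795, 1028 and 1449 at 1 month and 324, 533 and 453 at 4 months, with no overlap. P4ha1, the collagen prolyl hydroxylase, rose by 1.42, with 794, 889 and 2821 at 4 months, highest on replicate 3. The counts depended on single arrays, with 1, 4 or 6 higher without 1-month replicate 1, 2 or 3, 3 lower without 1-month replicate 2 or 4-month replicate 3, and a median of 0.01 without 1-month replicate 3. Of 24 endothelial genes 4 rose, where 12.5% of all genes did, and the median was 0.29. They were Pecam1 (CD31) at 1.00, Tie1 at 0.79, Plvap at 0.56 and Sox18 at 0.53. Of these 4, Pecam1 alone kept its call without each wild-type array in turn, since Tie1 lost it without 4-month replicate 1 (adjusted p = 0.050) and Plvap and Sox18 without any 1 array but 1-month replicate 3 (0.062 to 0.125). The count was 1 without 4-month replicate 1, 2 without 1-month replicate 1 or 2 or 4-month replicate 2 or 3, and 7 without 1-month replicate 3. Of 17 genes of postnatal growth and imprinting, none was called, and their median was -0.08.

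**Figure D3:**
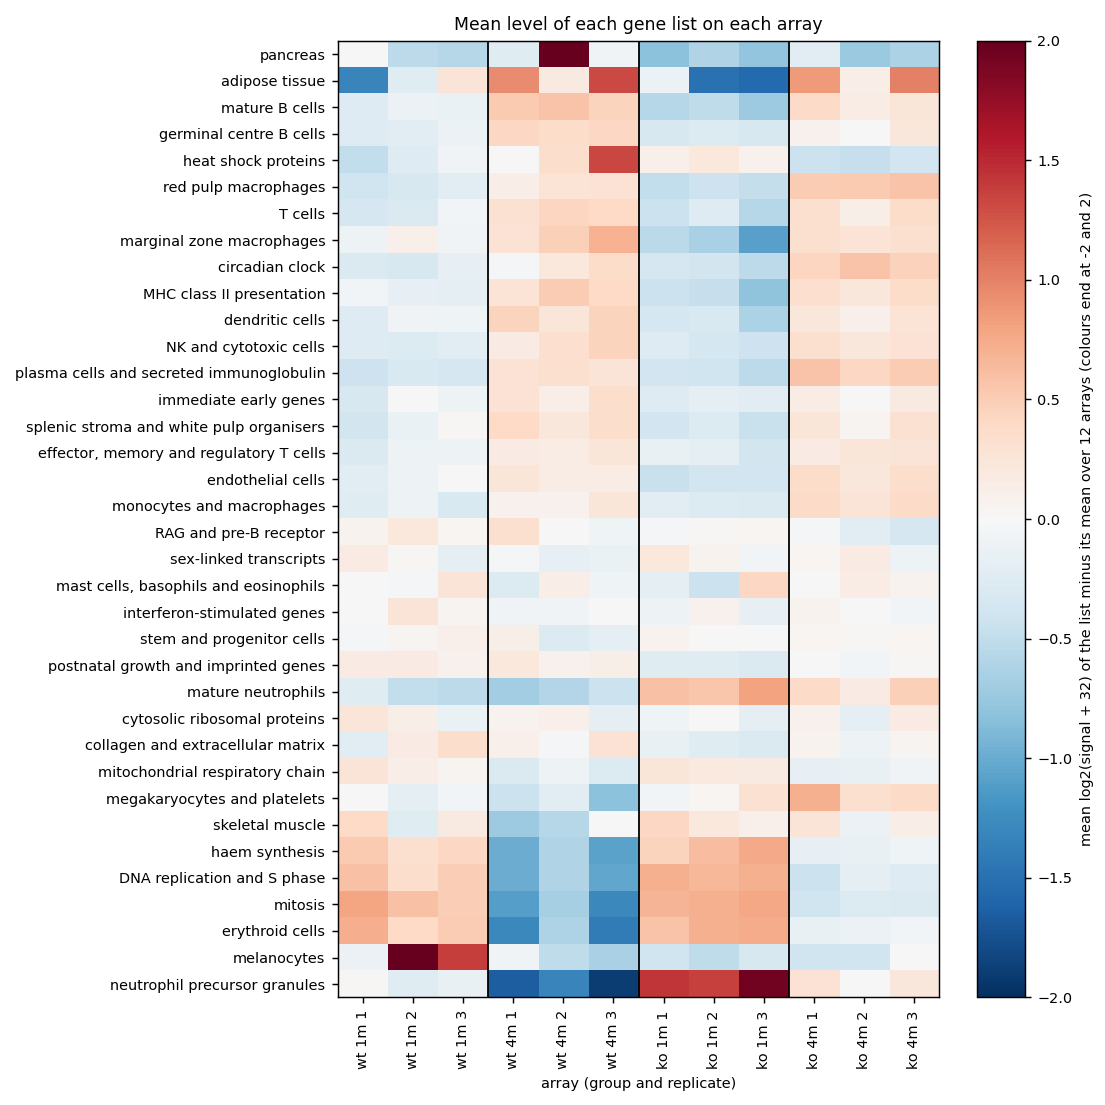
Mean log2 level of each gene list on each of the 12 arrays, relative to the list's own mean (colour), with lists in rows and arrays in columns. Erythroid, haem, replication and mitosis rows turn from red to blue between the 1-month and 4-month wild-type arrays, and single cells mark the pancreas signal of 4-month replicate 2, the melanocyte signal of 1-month replicates 2 and 3 and the heat shock signal of 4-month replicate 3.

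The heat shock genes Hspa1a and Hspa1b of the HSP70 family rose, by an amount that depended on 1 array. Hspa1b, an inducible HSP70 chaperone, read 134, 330 and 850 at 1 month and 3649, 3543 and 15762 at 4 months, 15.8-fold higher (log2 3.98, SE 0.52, limma adjusted p = 5.69e-05). The ages did not overlap, and replicate 3 of 4 months stood more than 4-fold above the other 2. Without that array the log2 difference was 3.27. Hspa1a, its near copy, rose 8.6-fold (log2 3.11) with 6959 on the same array, and by 2.09 on the log2 scale without it. The 2 genes cannot be fully separated. Of 21 members 10 rose and 1 fell, with a median of 0.68. Without 4-month replicate 3 the count was 4 higher and 2 lower and the median 0.34, and without 1-month replicate 1 it was 4. Hspa1b, Hspa1a, Dnaja1 and Hsph1 kept their calls without each array in turn. The cytosolic chaperone Hsp90aa1 and the mitochondrial Hspe1 and Hspd1 were not called, at 0.01, 0.05 and 0.10. Hspa8, another HSP70 gene, was called on 1 of its 4 probe sets, which ranged from 0.17 to 1.32.

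Promoters of the HSP70 pair are shown because both genes rose together. They hold the pair of inverted half-sites GAANNTTC that heat shock factor HSF1 reads, found in 9 of 18 heat shock genes with an entry and in 7.95% of all entries. The 150 bases before the start of Hspa1a (chr17:34972157-34972306) and Hspa1b (chr17:34959239-34959388), both on the minus strand of GRCm38.p6, are identical at 149 positions. The half-sites are in capitals.
Hspa1a: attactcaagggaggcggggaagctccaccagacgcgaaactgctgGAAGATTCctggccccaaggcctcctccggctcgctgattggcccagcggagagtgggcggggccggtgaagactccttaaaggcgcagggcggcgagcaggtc
Hspa1b: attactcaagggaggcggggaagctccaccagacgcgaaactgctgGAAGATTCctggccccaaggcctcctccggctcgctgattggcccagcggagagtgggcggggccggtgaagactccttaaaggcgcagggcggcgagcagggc

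Immediate early genes, which respond within minutes to handling, stress or signals, rose in 10 of 29 cases and fell in none, with a median of 0.48 (6 without 1-month replicate 1). Zfp36, which destabilises cytokine mRNA, read 1396 on average at 1 month and 2596 at 4 months (log2 0.89), and Nr4a1, Tnfaip3 and Ier5 rose by 0.87, 0.78 and 0.66. Fos, Egr1 and Dusp1 were not called, at 0.54, 0.12 and -0.20.

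Clock genes were among the movers, and the hour of sampling was not given. Of 17 tested, 8 rose and none fell, with a median of 0.54. Dbp, a direct target of the clock activators, read 167, 344 and 336 at 1 month and 554, 771 and 865 at 4 months, 2.48-fold higher (log2 1.31, SE 0.24, limma adjusted p = 0.00121), with no overlap. Nr1d2 rose by 0.97, Clock by 0.92 and Tef by 0.68. Arntl (BMAL1), whose transcript peaks opposite to Dbp, was not called at 0.46. The count was 5 without 1-month replicate 3, without 4-month replicate 2 or 3 and with median centring. Age and the hour of sampling cannot be told apart here.

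Interferon-stimulated genes split. Of 38 tested, 8 fell and 2 rose, and the median was -0.06. Rsad2 (viperin) read 32642, 36887 and 19157 at 1 month and 12316, 11629 and 8062 at 4 months, 2.71-fold lower (log2 -1.44, SE 0.21, limma adjusted p = 0.000206). Isg20, an RNA exonuclease, fell by 1.61, Cmpk2, which lies beside Rsad2 and is made with it, by 1.34 and Usp18 by 1.05. In contrast Irf7, Ifit3 and Oas2 were not called, at -0.44, -0.09 and -0.03, nor were the interferon-gamma chemokine Cxcl9 at 0.50 and the GTPase Igtp at -0.17. Stat2 and Bst2 were the 2 that rose, and Stat2 lost its call without 1-month replicate 1 or 2 or 4-month replicate 2 or 3 (adjusted p = 0.089, 0.094, 0.087 and 0.113).

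Genes of the respiratory chain were lower in part, and ribosomal protein genes were not called. All 47 genes of the mitochondrial respiratory chain had a negative log2 difference, with a median of -0.37. Of these 16 were called lower, among them Cox5b (-0.92), Ndufb9 (-0.72), Cycs (-0.56) and Cyc1 (-0.54). Cox5b had 5 probe sets, which ranged from -0.92 to -0.04 with 3 lower, and Ndufb9 had 3, which ranged from -0.72 to 0.95 with 2 lower. The count was 6 without 1-month replicate 1, 9 without 4-month replicate 1 and 27 with median centring. None of 42 genes of cytosolic ribosomal proteins was called, with a median of -0.14.

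Among transcripts of neighbouring or foreign tissue, those of pancreas and melanocytes were few but large, and were highest on 1 or 2 arrays. Ctrb1, a pancreatic chymotrypsinogen, read 28254 on 4-month replicate 2 and 15.7 to 152 on the other 5 wild-type arrays, and was not called (limma adjusted p = 0.149). Prss2 and Cela3b, other pancreatic enzymes, were called on 1 probe set each, with 20001 and 15109 there and at most 179 elsewhere in wild type. Prss2 lost its call without 4-month replicate 2, where its log2 difference went from 3.88 to 1.52, while Cela3b kept its call without that array. Both lost it without any 1 of the 1-month arrays. On the probe sets of highest mean, 1 of 9 pancreas genes was called, Gp2 at 1.77, and it lost its call without any 1 of the 1-month arrays (adjusted p = 0.051 to 0.078). The melanocyte genes Tyrp1 and Dct read 1951 and 3099 on 1-month replicate 2, 931 and 1461 on replicate 3, and 75.4 and 6.17 on replicate 1. At 4 months they were between 6.14 and 84.0, and 3 of 7 melanocyte genes (Tyrp1, Pmel and Tyr) were called lower. Albino BALB/c mice keep melanocytes but make no pigment, and the source of this RNA was not tested. Of 6 adipose genes 2 rose, the lipid desaturase Scd1 by 0.95 and Fabp4 by 1.47. Fabp4 lost its call without 1-month replicate 1 or 2 or 4-month replicate 1 or 3 (adjusted p = 0.170, 0.076, 0.098 and 0.123). The adipocyte hormone Adipoq ranged from 14.2 to 389 at 1 month and from 178 to 887 at 4 months and was not called. Of 3 muscle genes Mylpf and Pvalb fell, at signals of 319 or less on average, with calls lost without 1-month replicate 1 (adjusted p = 0.051 and 0.095) and others, while the defining muscle genes Ckm and Acta1 stayed below the filter. None of 15 genes of mast cells, basophils and eosinophils was called, with a median of 0.00. None of 4 sex-linked transcripts was called either.

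**Figure D4:**
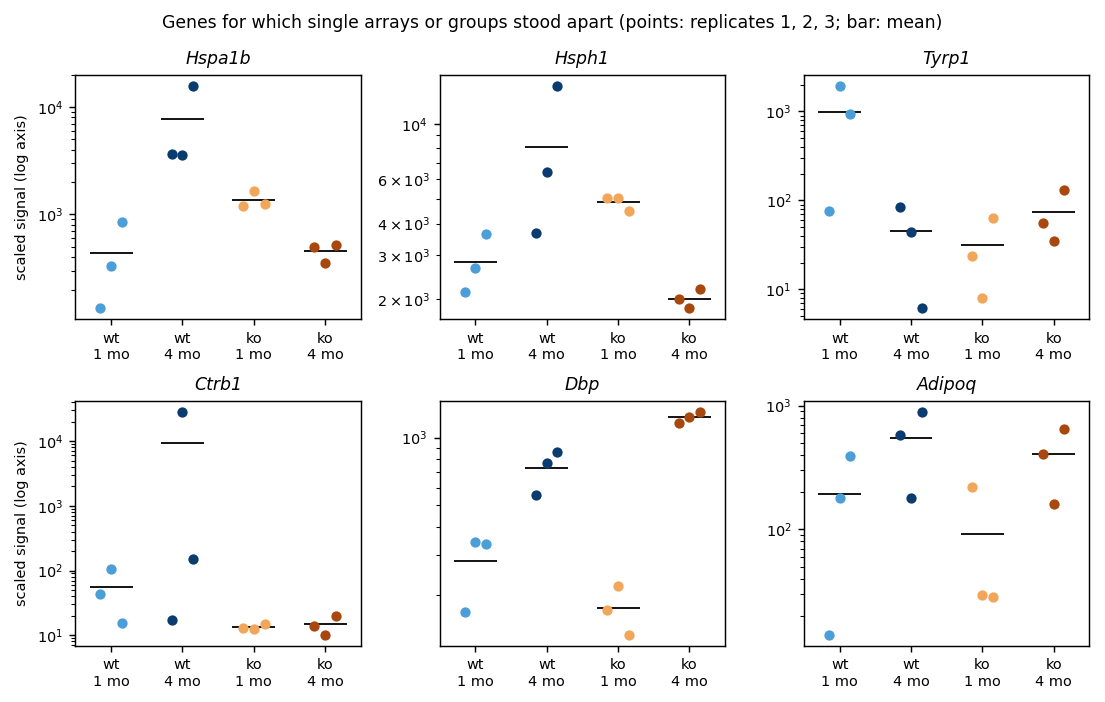
Scaled signal on a log axis of 6 genes on each array, grouped by genotype and age, with replicates 1 to 3 from left to right and a bar at the mean. Hspa1b and Hsph1 rise with age in wt and are lower at 4 months in ko, while Tyrp1 and Ctrb1 are high on 2 and on 1 of the wild-type arrays and Dbp rises in both genotypes.

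Outside the lists, a few further genes stood at the ends of the comparison. Npy1r, a receptor of neuropeptide Y, rose from 3.21 to 15.2 at 1 month to 119 to 258 at 4 months, and Parm1 and Itsn2 rose by 2.09 and 2.03. Apol8 read 5023, 4201 and 4010 at 1 month and 679, 1066 and 637 at 4 months, 5.49-fold lower (log2 -2.46, SE 0.18, limma adjusted p = 1.76e-06). The transcript 6030468B19Rik, of no known role, went from 339 to 584 down to 13.5 to 26.0, and Dmtn, which bundles actin in the red cell skeleton, fell by 2.75.

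The age difference of the wild type was also seen for 59.9% of its calls in Il1rn-deficient spleens, on 6 other arrays. There 6187 probe sets (22.9%) were called, 3685 higher (13.6%) and 2502 lower (9.25%), and 3471 were called in the same direction in both genotypes, which is that share of the wild-type calls and 56.1% of the ko calls. Another 11 were called in opposite directions. The 2 contrasts use separate arrays but 1 estimate of the spread. In ko, the mitosis list fell in 40 of 42 cases, the replication list in 32 of 34 and the mature B cell list rose in 18 of 23. The medians were -1.03, -1.01 and 0.87, beside -1.69, -1.34 and 0.73 in wild type. T cell genes rose in 17 of 22 cases and red pulp macrophage genes in 16 of 17, with Blvrb again the one that fell. Clock genes rose in 10 of 17, with a median of 0.93, and Dbp by 2.63. Igha rose by 3.45 in ko and by 3.44 in wild type.

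Erythroid genes fell in 19 of 27 cases in ko, with a median of -0.80 beside -1.72 in wild type. Klf1 was not called in ko (-0.64, limma adjusted p = 0.054). The difference between the genotypes was 1.18 for Klf1 (limma adjusted p = 0.28), and it was not called for any of the 27 genes, for which its median was 0.91. Megakaryocyte genes, of which 6 fell in wild type, had a median of 0.42 in ko with 2 higher, and again no member's difference was called. The age difference itself was called as different between genotypes for 13 of the 27041 probe sets (0.0481%), 8 higher (0.0296%) and 5 lower (0.0185%) in ko minus wt, while 2338 had an unadjusted p under 0.05.

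Heat shock genes accounted for all 5 that were lower. Hspa1b rose by 3.98 in wild type and fell by 1.52 in ko, where it read 1208, 1650 and 1263 at 1 month and 501, 356 and 520 at 4 months, so that the genotypes differed by -5.50 (SE 0.73, limma adjusted p = 0.00747). As a list, heat shock genes had a median of 0.68 with 10 higher in wild type and of -0.62 with 9 lower in ko. Among the 8 that were higher was 1 probe set of Ighg3, which rose by 4.11 in ko against 1.72 in wild type. That difference was 2.39 (SE 0.35, limma adjusted p = 0.0143). The other Ighg3 probe set differed by 0.21 and was not called. For Ighm, 2 of 7 probe sets were among the 8, and rose by 4.68 and 4.05 in ko against 2.35 and 1.74. The difference was not called for the other Ighm probe sets. Among those were the 2 brightest (0.27 and 0.67), whose age differences in ko, 0.54 and 0.63, were not called either. Mcpt4, a mast cell protease, was not called in wild type, at 352 ± 62.6 and 269 ± 95.7 (SD, n = 3) and rose in ko from 20.4 to 338 on average. Rsad2 on its second probe set fell by 1.51 in wild type and stood at -0.04 in ko. The number of such calls depended on single arrays, with 5 to 8 without 1-month ko replicate 1, 2 or 3 or 4-month ko replicate 1 or 2, 48 without wild-type 1-month replicate 3 and 92 without wild-type 4-month replicate 2.

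**Figure D5:**
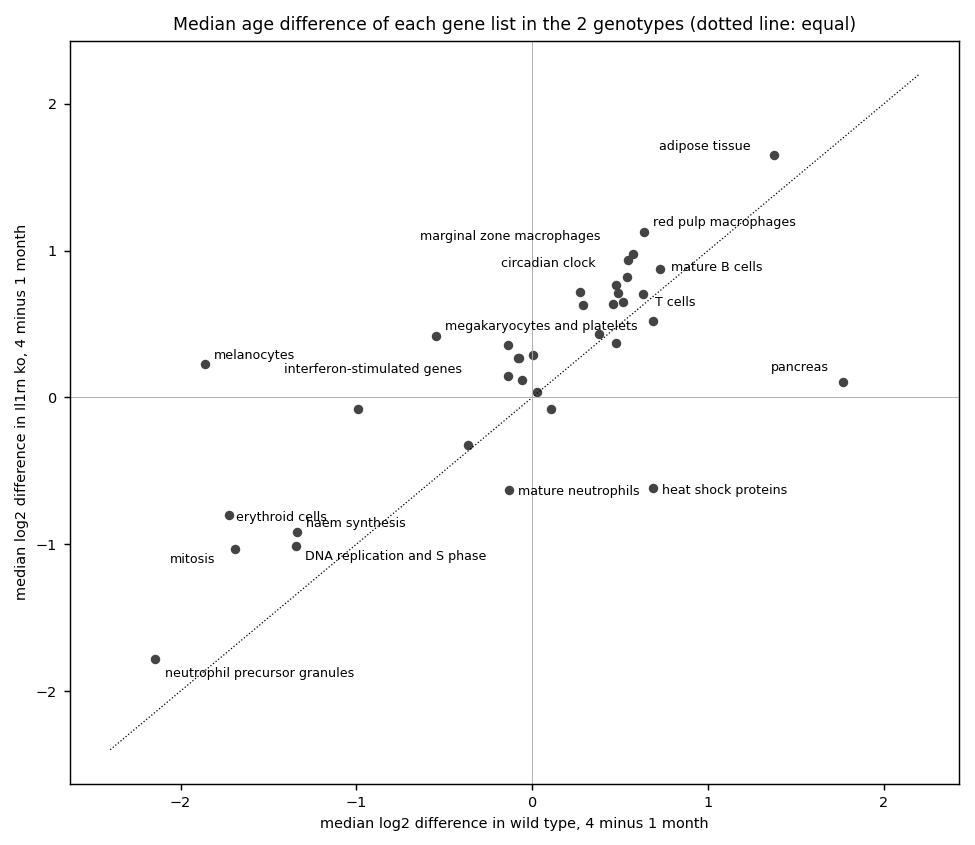
Median log2 difference between 4 and 1 months of each of the 36 gene lists in wild type (x axis) and in Il1rn ko (y axis), with a dotted line where they are equal. The mitosis, replication and granule lists are low in both genotypes, and heat shock proteins lie at 0.68 in wild type and -0.62 in ko.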

How the data were processed

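The deposited table gave linear signal intensities, and the submitters' processing notes name MAS5 with no version given. The table held 45101 probe sets, of which 64 were controls and were left out, and 34945 had 1 gene symbol, 932 several and 9160 none, per a table of the platform annotation updated through the gene table of GRCm38.p6. Signals were scaled to a 2% trimmed mean of 500 (counts of calls were equal without this step), 32 was added and log2 taken. Probe sets with a signal of at least 100 on at least 3 of the 12 arrays were tested with limma 3.58.1 in R 4.3.3 (lmFit, eBayes with intensity trend, 4 group means over 12 arrays, two-sided, Benjamini-Hochberg over 27041 probe sets), which was checked on simulated data. There were 8 residual and 8.27 prior degrees of freedom, and the number of arrays limits the precision.

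The rule for named genes took the 10 strongest rises and the 10 strongest falls that were called without overlap, up to 4 members of smallest p per list with at least 2 calls, the cell type markers, Il1rn, and the first 3 genes each way of the difference between genotypes. Other genes were named after their values were seen. A gene stands in the lists with its probe set of highest mean, and some genes are in several lists. Of the 906 different genes in the lists, 723 were tested. The members and lists were chosen with earlier results of these data known, so the counts are descriptions. Nothing in the labels says that same-numbered arrays were paired, and their deviations from the group means correlated at 0.01, -0.17 and 0.21 in wild type. The alternatives were other scalings, offsets, filters, variance settings, thresholds, blocks, array sets and each array left out in turn. Detection calls were not used here. Some named genes were called on only part of their probe sets. Among them were Clock and Sdc1 (2 of 4), Il7, Il2rb, Marco, Prf1, Dscc1 and Mgst3 (1 of 2) and Ier5 (1 of 3). Promoter sequences are RefSeq's, matched by symbol, with the first entry per gene.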

Additional observations from a re-analysis of the deposited data

Results flagged for a closer look

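For 13 probe sets the age difference differed between ko and wild type by limma's test of the difference at an adjusted p under 0.05. In ko minus wt on the log2 scale, Hspa1b stood at -5.50, -5.39 and -5.34 on its 3 probe sets, Hspa8 at -2.22 and Dnajb1 at -1.26. The higher ones were Mcpt4 at 3.18, Ighg3 at 2.39, Ighm at 2.33 and 2.30, 6030468B19Rik at 2.22, Apol8 at 1.52, Rsad2 at 1.47 and Cyp4b1 at 1.21. Hspa8 went from 546 to 1483 on average in wild type and from 654 to 340 in ko, and Cyp4b1 from 1409 to 1270 and from 1225 to 2580. 6030468B19Rik and Apol8 fell in both genotypes, by 3.29 and 2.46 in wild type and by 1.07 and 0.94 in ko. For the heat shock genes the highest wild-type value was on 4-month replicate 3, and without that array 5 of the 13 lost their call (Hspa8, 6030468B19Rik, Apol8, Rsad2 and Cyp4b1), while the 3 probe sets of Hspa1b and that of Dnajb1 kept theirs. Dnajb1 lost its call under 14 of 28 alternatives, 8 of them with 1 other array left out. The 3 probe sets of Hspa1b lost theirs under 2, without the intensity trend and with the robust variance setting. Hspa8 had 4 probe sets, which ranged from 0.17 to 1.32 with age in wild type, and 1 of them was called there.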

How the results depend on the processing

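Of the 128 probe sets named by the rule for age in wild type, 113 kept their call under the alternatives other than the 2-fold limit and the fits within 1 array set, and none changed direction under any. The rule took the calls of largest difference or smallest p, so this share does not stand for the calls in general. Of 335 called list members, 46 lost the call with median centring, 23 with quantile normalization and 0 when the array set was a block. Within the high set 65 lost it and within the low set 153, where 1 changed sign. Calls in wild type numbered 1684 (566 higher, 1118 lower) with a 2-fold limit, 3680 (1834 higher) with array weights, 3761 (1980 higher) in the high set, 1559 (419 higher, 1140 lower) in the low set and 3186 (1487 higher, 1699 lower) with only the groups compared. Median centring gave 1851 higher. Leaving out each array gave 3492 to 6375 calls, 1662 to 3654 higher and 1830 to 2721 lower, with the lowest counts without 1-month replicate 1. The replicate block gave 5470 calls (2972 higher, 2498 lower), 5295 of them shared, and arrays of 1 number share only that number. For age in ko, calls numbered 1459 with a 2-fold limit, 11052 with array weights and 2470 in the low set, and 3653 to 5332 without each array. The difference between genotypes had 31 calls at an adjusted p under 0.10, 30 with array weights, 8 with no filter, 1 without the trend and 5 to 92 without each array. With 3 arrays a group and saturated or dim probe sets, small differences were not detectable, and the causes of these shifts were not tested.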
